A study of Drosophila melanogaster with 28 samples.

Results

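The FLAG precipitations of CLAMP and of a CLAMP mutant, each added without MSL2 to chromatin reconstituted in vitro, gave a list of 224 peaks for the mutant and a list of 354 peaks for CLAMP. Members were all peaks of these 2 lists, divided by overlap of at least 1 bp. There were 219 regions called with both proteins (shared), 135 called with CLAMP only and 5 called with the mutant only. Together these are 359 of the 1098 regions that the 9 peak lists of the series give when overlapping peaks are merged.

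CLAMP is a Drosophila protein whose zinc fingers recognise GA repeats. It is known to help MSL2, which directs the dosage compensation complex of males to DNA, to reach the X chromosome, and it also binds many autosomal sites. Chromatin built on purified DNA does not carry over the chromatin state of the cells it came from. The labels do not say which other proteins the assembly contained.

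The chromatin was built over 5 h on genomic DNA isolated from BG-3 cells, a male Drosophila line of larval nervous system origin. Proteins bound for 30 min before crosslinking and partial MNase digestion. The FLAG antibody was used on chromatin with the CLAMP mutant (2 libraries), with CLAMP (2 libraries) and on a negative control (2 libraries), for which the labels name no added factor. The other groups used here carry a protein as well. The CLAMP antibody was used with the CLAMP mutant, with CLAMP, with MSL2 and the mutant, and with MSL2 and CLAMP (2 libraries each). The MSL2 antibody was used with MSL2 and the mutant, with MSL2 and CLAMP, and with MSL2 alone (3 libraries each). The labels do not say which residues or domain the mutation changes, nor how much protein was added. No cell and no RNA is present, so no cell type marker applies.

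The authors called 1 list per group after merging its libraries, and nothing in the labels says whether these came from separate assemblies. No value below therefore has a spread between libraries, and no test between mutant and CLAMP was possible. The ranges given with shares are exact 95% Clopper-Pearson intervals and reflect only how many peaks were counted. Where 2 intervals overlap, this does not show that the shares are equal, and differences between shares were not tested. The FLAG mutant tag set was the deeper, with 23512312 tags against 17840662 for CLAMP. Tags in peaks were 1.38% of the mutant set and 2.50% of the CLAMP set. A peak held on average 617 tags in the mutant list and 706 in the CLAMP list, per 10000000 tags of the set. The caller started from 27574 putative peaks for the mutant and 23880 for CLAMP, and comparison with the FLAG negative control removed 99.2% and 98.5% of them. Both lists share that control. A CLAMP peak without a mutant peak thus lay under at least 1 filter in the mutant set, and no loss of signal was measured there.

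Nearly every mutant peak fell on a CLAMP peak, and over 1 in 3 CLAMP peaks had no mutant counterpart. The mutant list had 219 of 224 peaks in the CLAMP list (97.8%, 94.9 to 99.3), and the CLAMP list had 219 of 354 in the mutant list (61.9%, 56.6 to 66.9). The pairs were 1 to 1, so at most 224 of the 354 CLAMP peaks could have a mutant counterpart. The lengths of the lists thus leave most of the 135 peaks with CLAMP only without one, whichever sites were called. With the CLAMP list reduced in file order to the length of the mutant list, 65 peaks were in the mutant list only and 65 in the CLAMP list only. With 50% reciprocal overlap required, 15 were with the mutant only. The pairing by overlap itself keeps the starts of 2 peaks less than a peak width apart, so the distances describe the pairs within that bound. The mutant and CLAMP peaks started at the same base in 45 of 219 pairs, within 10 bp in 126 (57.5%, 50.7 to 64.2) and within 50 bp in 197 (90.0%, 85.2 to 93.6). The median distance between the starts was 7 bp, and the largest was 128 bp, in peaks that are 151 bp wide in all but 1 case per list. The mutant start was the lower coordinate in 100 pairs and the higher in 74.

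**Figure D1:**
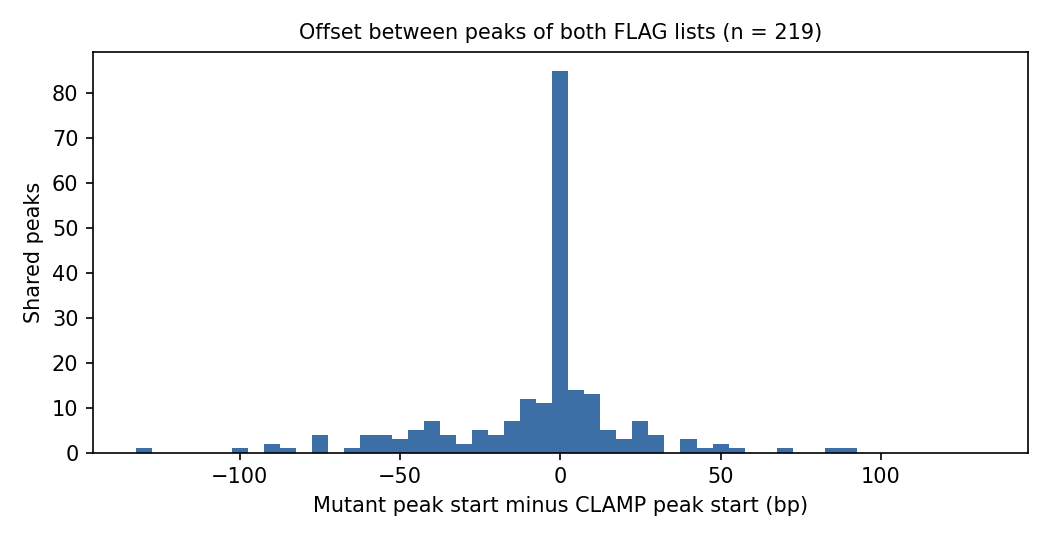
Distance between the starts of mutant and CLAMP peaks (mutant minus CLAMP, in bp) for the 219 shared FLAG regions, in bins of 5 bp. The largest bin lies at 0, and 197 of the 219 pairs lie within 50 bp.

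The peaks called with CLAMP only were separate places rather than shifted calls. Only 2 of the 135 had a mutant peak within 500 bp (1.48%, 0.180 to 5.25), and 19 had one within 10000 bp (14.1%, 8.69 to 21.1). The median distance to the nearest mutant peak was 91970 bp and the shortest 212 bp.

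Both proteins were called most densely on X, and no arm stood apart in how many of its CLAMP peaks the mutant list held. On X there were 108 mutant peaks (4.59 per Mb) and 168 CLAMP peaks (7.14 per Mb). On the autosome arms together there were 107 mutant peaks (0.972 per Mb) and 175 CLAMP peaks (1.59 per Mb). The density on X over that on the autosome arms was 4.09 for peaks with CLAMP only and 4.77 for shared peaks. The mutant list held 106 of the 168 CLAMP peaks on X (63.1%, 55.3 to 70.4). It held 30 of 60 on 3L (50%, 36.8 to 63.2), 29 of 46 on 3R (63.0%, 47.5 to 76.8), 25 of 40 on 2R (62.5%, 45.8 to 77.3) and 20 of 29 on 2L (68.97%, 49.2 to 84.7). These intervals overlap. Chromosome 4 had 0 peaks in both lists, where 3.26 CLAMP peaks would lie at its share of the arm length. That value counts the dense X among the arms, and at the density of the autosome arms it would be lower.

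**Figure D2:**
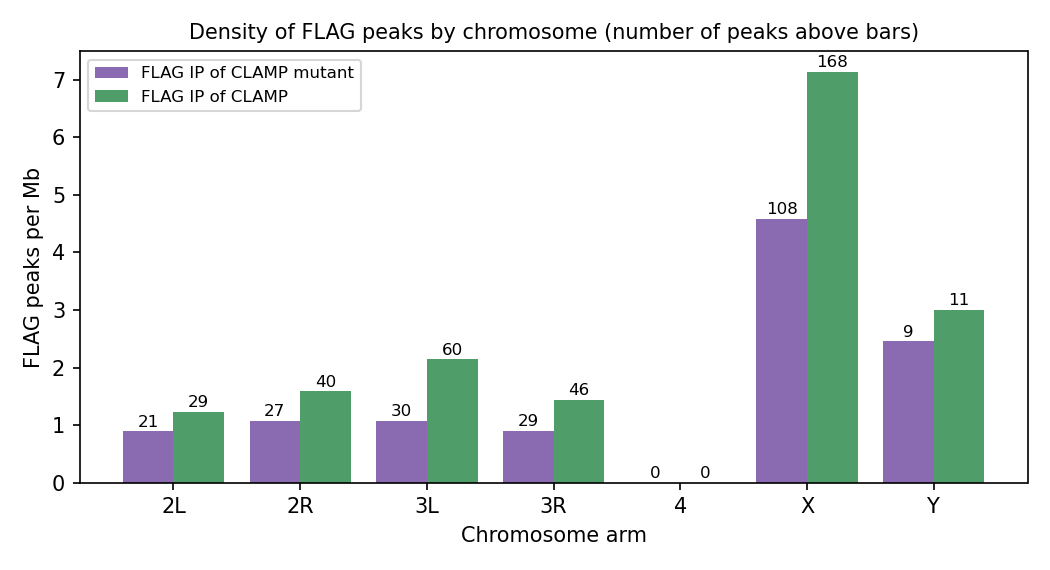
FLAG peaks per Mb on each chromosome arm for the CLAMP mutant (left bars) and CLAMP (right bars), with the number of peaks above each bar. X is highest in both lists, at 4.59 and 7.14 peaks per Mb, and chromosome 4 has none.

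The order of the lines in the CLAMP list carried information on which peaks the mutant shared. The score column is constant and the headers do not say what the order ranks, so this is a description only. The mutant list held 46 of the first 50 CLAMP peaks (92.0%, 80.8 to 97.8) and 42 of the next 50 (84.0%, 70.9 to 92.8). It held 20 of the peaks in lines 301 to 350 (40%, 26.4 to 54.8). This was seen on both kinds of chromosome. On X the first 50% of the CLAMP peaks were shared in 70 of 84 cases (83.3%, 73.6 to 90.6) and the second 50% in 36 of 84 (42.9%, 32.1 to 54.1). On the autosome arms the numbers were 69 of 87 (79.3%, 69.3 to 87.3) and 35 of 88 (39.8%, 29.5 to 50.8).

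**Figure D3:**
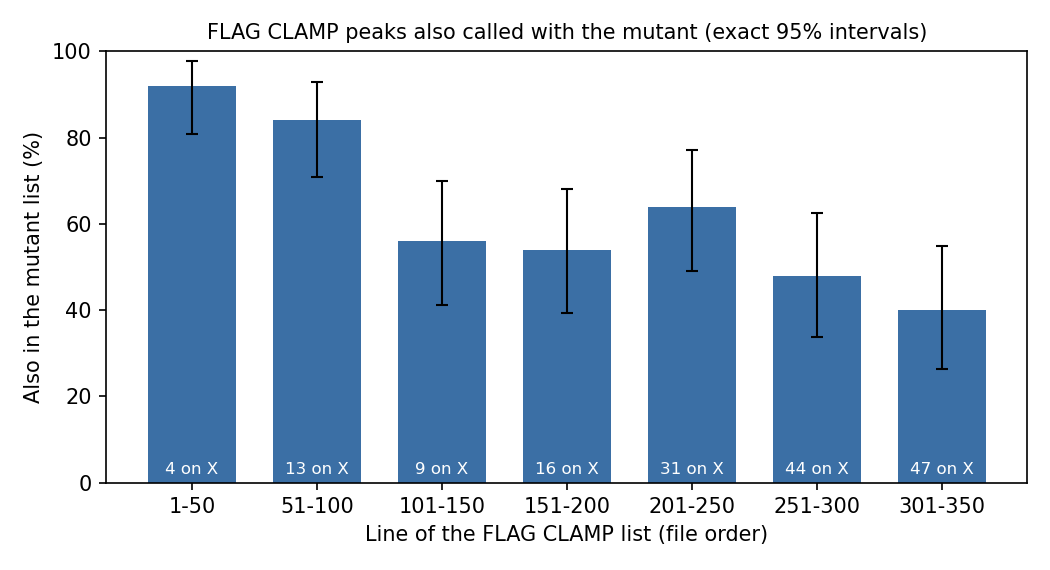
Share of FLAG CLAMP peaks that were also called with the mutant, in consecutive sets of 50 lines of the CLAMP list, with exact 95% intervals. The share is 92.0% in lines 1 to 50 and 40% in lines 301 to 350, and the number on X, printed in the bars, is 4 and 47 there.

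Because X peaks lie late in the list, the share on X was also taken by place. Over the whole list X held 62 of the 133 arm peaks with CLAMP only (46.6%, 37.9 to 55.5) and 106 of 210 shared arm peaks (50.5%, 43.5 to 57.4). Within the first 50% of the CLAMP list the share on X was 6.67% of peaks with CLAMP only (3 of 45, 1.40 to 18.3) and 26.8% of shared peaks (33 of 123, 19.2 to 35.6). Within the second 50% it was 67.0% (59 of 88, 56.2 to 76.7) and 83.9% (73 of 87, 74.5 to 90.9). Read the other way, the mutant list held 33 of the 36 X peaks in the first 50% (91.7%, 77.5 to 98.2) and 90 of the 132 autosomal ones (68.2%, 59.5 to 76.0). In the second 50% it held 73 of 132 on X (55.3%, 46.4 to 64.0) and 14 of 43 on the autosome arms (32.6%, 19.1 to 48.5). The intervals for X and autosomes do not overlap in the first 50% and overlap slightly in the second. The split by place was made after the data were examined. The direction depended on how it was made: with both lists reduced to their first 50% before matching, the share on X was 23.5% of peaks with CLAMP only and 20% of shared peaks.

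The first 9 lines of the CLAMP list lay on Y and on autosomes, with few annotated genes around them. The first line of both lists was a site on 2L (23512857 to 23513007), 96704 bp from the nearest annotated gene. Lines 2 to 9 of the CLAMP list included 5 Y sites. One lay 8741 bp from PRY and 2 in kl-5, which encodes a sperm dynein heavy chain (Y 124275 to 124425 and 132518 to 132668). The others lay in Ppr-Y (1642455 to 1642605) and in CCY (3652927 to 3653077). The autosomal sites among them lay in Pzl, a mechanosensitive channel gene (3R 3169794 to 3169944), and on 2R, 18717 bp from CR41379 and 42963 bp from DIP-lambda. All 9 were shared with the mutant, and a median of 1 annotated gene lay within 50 kb of them, against 11 over all 354 CLAMP peaks. These 9 sites were in 0 of the lists of the CLAMP antibody and of MSL2 alone, and all 9 were in the MSL2 list made with CLAMP. This group of 9 was set apart after the values were seen. Line 10, in CG32137 (3L 13949494 to 13949644), had 17 genes within 50 kb and was in the lists of MSL2 alone, MSL2 with CLAMP, and the CLAMP antibody with both proteins. Lines 10 to 50 had a median of 9 genes within 50 kb, and 30 of these 41 were in the CLAMP antibody list made with MSL2 and CLAMP and 11 in that of MSL2 alone. In all, Y held 9 mutant peaks and 11 CLAMP peaks, of which 9 were shared and 2 were with CLAMP only, 1 in Ppr-Y and 1 lying 179463 bp from it. How the authors treated reads from repeated sequence is not given in the sources used here, and its part in these peaks was not tested.

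Peaks of other antibodies, which did not enter the choice of the FLAG classes, lay more often at shared sites than at sites with CLAMP only. With the CLAMP antibody, CLAMP alone was called at 7 of 135 sites with CLAMP only (5.19%, 2.11 to 10.4) and at 34 of 219 shared sites (15.5%, 11.0 to 21.0), where the share over all 354 CLAMP peaks was 11.6%. The mutant alone was called by this antibody at 0 of 135 sites with CLAMP only, which allows a share of up to 2.22%, and at 22 of 219 shared sites (10.05%, 6.40 to 14.8), against 6.21% over all CLAMP peaks. At sites with CLAMP only, the intervals were 0 to 2.70 for the mutant and 2.11 to 10.4 for CLAMP. Both shares were counted on the same 135 sites, so these separate intervals do not compare the proteins. The difference was not tested. The CLAMP antibody lists of single proteins were short, at 38 peaks from 4587804 tags for the mutant and 74 peaks from 8571204 tags for CLAMP. The part of this gap in depth was not tested.

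With MSL2 added, the CLAMP antibody found CLAMP at 40 of 135 sites with CLAMP only (29.6%, 22.1 to 38.1) and at 112 of 219 shared sites (51.1%, 44.3 to 57.9), against 42.9% over all. With MSL2 and the mutant it found 2 of 135 (1.48%, 0.180 to 5.25) and 11 of 219 (5.02%, 2.53 to 8.81), against 3.67% over all, and these intervals overlap.

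Of the FLAG CLAMP sites that MSL2 alone also marked, 37 were shared and 3 were with CLAMP only. Most peaks of MSL2 alone (92 of 132) lay at no FLAG site, as did most of MSL2 with CLAMP (382 of 466). MSL2 alone was called at 3 of 135 sites with CLAMP only (2.22%, 0.461 to 6.36) and at 37 of 219 shared sites (16.9%, 12.2 to 22.5), against 11.3% over all CLAMP peaks. On X it was called at 2 of 62 sites with CLAMP only (3.23%, 0.393 to 11.2) and at 24 of 106 shared sites (22.6%, 15.1 to 31.8). On the autosome arms these were 1 of 71 (1.41%, 0.0357 to 7.60) and 13 of 104 (12.5%, 6.83 to 20.4), with overlapping intervals. The 3 exceptions lay in sif (3L 5729092 to 5729242), in the homeobox gene OdsH (X 17812322 to 17812472) and 2054 bp from CG15465 (X 5256918 to 5257068).

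With MSL2 and CLAMP together, the MSL2 antibody found 15 of 135 sites with CLAMP only (11.1%, 6.35 to 17.7) and 68 of 219 shared sites (31.1%, 24.99 to 37.6), against 23.4% over all. With MSL2 and the mutant together it found 1 of 135 (0.741%, 0.0188 to 4.06) and 4 of 219 (1.83%, 0.500 to 4.61), against 1.41% over all. The intervals in that mixture overlap, and the difference between the classes was not tested. By place in the CLAMP list, the gaps for MSL2 alone and for MSL2 with CLAMP kept their direction. The intervals were apart in the first 50% and overlapped in the second, and each part holds fewer sites than the whole list. That overlap does not show that the gaps vanish in the second 50%, and they were not tested there. In the first 50% the share with MSL2 alone was 2.22% of sites with CLAMP only (1 of 45, 0.0562 to 11.8) and 19.7% of shared sites (26 of 132, 13.3 to 27.5). In the second 50% it was 2.22% (2 of 90, 0.270 to 7.80) and 12.6% (11 of 87, 6.48 to 21.5), and these intervals overlap. For MSL2 with CLAMP it was 13.3% (6 of 45, 5.05 to 26.8) and 41.7% (55 of 132, 33.2 to 50.6) in the first 50%. In the second 50% it was 10% (9 of 90, 4.68 to 18.1) and 14.9% (13 of 87, 8.20 to 24.2), with overlapping intervals. For CLAMP alone by the CLAMP antibody the intervals overlap in both: 8.89% (4 of 45, 2.48 to 21.2) and 18.9% (25 of 132, 12.6 to 26.7) in the first 50%, and 3.33% (3 of 90, 0.693 to 9.43) and 10.3% (9 of 87, 4.84 to 18.7) in the second.

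**Figure D4:**
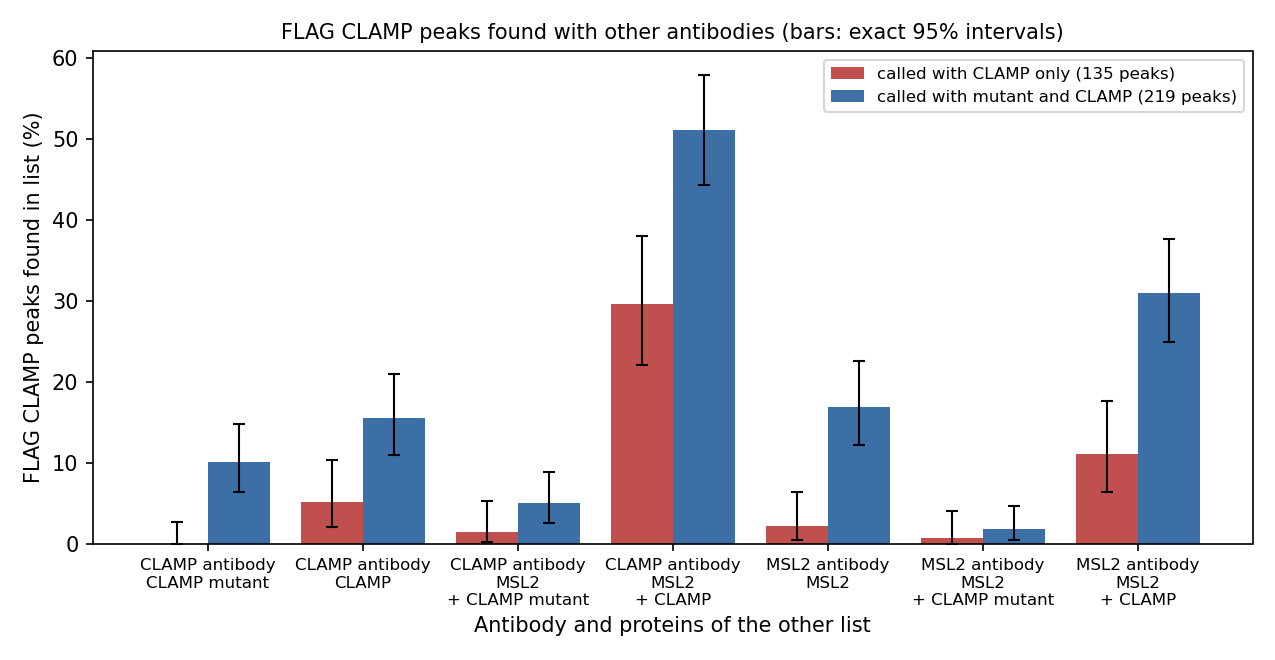
Share of FLAG CLAMP peaks found in each of the 7 lists of the other antibodies, for 135 peaks called with CLAMP only (left bars) and 219 shared peaks (right bars), with exact 95% intervals. Shared peaks are higher in all 7 lists, and the intervals do not touch for the CLAMP mutant, CLAMP, and MSL2 with CLAMP by the CLAMP antibody and for MSL2 alone and MSL2 with CLAMP by the MSL2 antibody.

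Taking the 7 lists together, 85 of 135 sites with CLAMP only (63.0%, 54.2 to 71.1) and 77 of 219 shared sites (35.2%, 28.8 to 41.9) were in none of them. At least 3 of them held 4 sites with CLAMP only (2.96%, 0.813 to 7.41) and 47 shared sites (21.5%, 16.2 to 27.5). The sites with CLAMP only that most lists held were in OdsH (4 lists), in CG2839 (2L 626912 to 627062), in dnc, the cAMP phosphodiesterase gene of learning (X 3325922 to 3326072), and in sif (3 lists each). The dnc site also lies in the body of lncRNA:CR44886 and the sif site in that of CG46320. The OdsH site was found by the CLAMP antibody with and without MSL2 and by the MSL2 antibody with CLAMP and alone, and in 0 lists that held the mutant. CLAMP alone, with the CLAMP antibody, was also called at a second site in CG2839 (2L 627376 to 627526), in the nicotinic receptor gene nAChRbeta1 (3L 4430398 to 4430548), in Sh, the Shaker potassium channel gene (X 18050875 to 18051025), and 1096 bp from upd3, a JAK-STAT ligand gene (X 18285692 to 18285842).

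Among shared sites, those in the most lists were in para, the voltage-gated sodium channel gene (X 16501667 to 16501817), and at 2R 18062020 to 18062170, a site 245 bp outside CG34386, each in 6 of the 7. Sites in 5 lists lay in Rbp6, which encodes an RNA-binding protein (3L 17159666 to 17159816), in Tomosyn, which encodes a syntaxin-binding brake on neurotransmitter release (X 12648261 to 12648411), in mei-P26, a germline regulator (X 9174131 to 9174281), in CG34408, and 34349 bp from CG43245. The mutant start at the para site was 40 bp below the CLAMP start, at the Tomosyn site 12 bp above it and at the Rbp6 site 1 bp above it.

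High places in the CLAMP list did not all go with a mutant peak. The first site with CLAMP only stood at line 20 and lay in Ptp61F, a tyrosine phosphatase gene (3L 1369355 to 1369505). A second one in the same gene, 622 bp away, stood at line 41 (1370128 to 1370278). The nearest mutant peak was 416438 bp from the first of them, and both were in 0 of the 7 other lists. The next ones lay 1083 bp from lncRNA:CR44531 (line 22), 133 bp from the homeobox gene Drgx (line 46), in CG2839 (lines 52 and 75) and in pros, the neural fate gene prospero (line 53). They were followed by dnc (line 61), by a site 1117 bp from CG18249 (line 73) and by one 876 bp from the homeobox gene slou (line 89). In pros the mutant was called 1549 bp away from the site with CLAMP only.

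Sites of both kinds could lie in the same gene. Of 213 genes with a CLAMP peak in the body, 62 had only peaks with CLAMP only, 119 only shared peaks and 32 both. Of the 58 genes with at least 2 CLAMP peaks, 32 had both kinds, 8 only peaks with CLAMP only and 18 only shared ones. This 55.2% with both kinds was not tested. Of all 348 neighbouring pairs of CLAMP peaks, 48.3% joined both kinds. Genes with 3 or more peaks have more room for both kinds than a pair has. In the 14 genes with at least 3, 13 of them on X, the 3L gene being fz2, the mutant was called at 2 or more sites in each. The zinc finger gene mamo had 2 mutant and 5 CLAMP peaks. Its shared sites were at X 13882461 to 13882611 and 13927573 to 13927723, and its sites with CLAMP only at 13852096 to 13852246, 13871598 to 13871748 and 13967786 to 13967936. Sh had 2 mutant and 4 CLAMP peaks, with the 2 shared sites between the others. Genes in which every CLAMP peak was shared were Tomosyn (4 and 4 peaks), the Wnt receptor gene fz2 (3 and 3), shakB, an innexin gene of electrical synapses (3 and 3), and CG43658 (3 and 3). One CLAMP site was not called with the mutant in mgl, the megalin gene (3 mutant and 4 CLAMP peaks), and in dnc, eag, Neto, fne, rg, CG15465 and lncRNA:CR32773 (2 and 3 each). The genes rg and CG15465 have the same coordinates in the gene table and hold the same peaks.

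**Figure D5:**
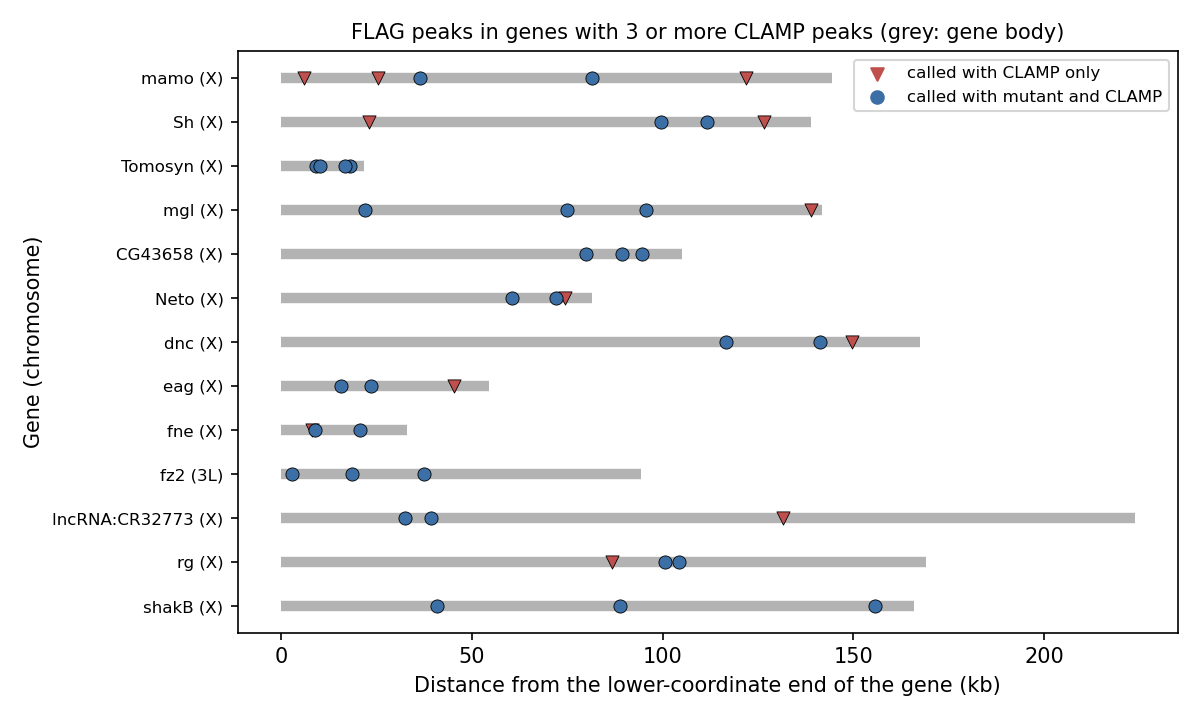
Positions of FLAG CLAMP peaks in genes with at least 3 of them, as distance from the lower-coordinate end of the gene in kb (grey bar, gene body), for 13 of 14 genes (CG15465 coincides with rg). Triangles are sites called with CLAMP only and circles shared sites, and every gene has at least 2 circles.

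Gene bodies held 95 of the 135 sites with CLAMP only (70.4%, 61.9 to 77.9) and 165 of the 219 shared sites (75.3%, 69.1 to 80.9). Gene bodies cover 69.6% of the arm bases, and on the arms alone the shares were 70.7% (62.2 to 78.2) and 76.2% (69.8 to 81.8). On X, where gene bodies cover 74.6% of the bases, they were 77.4% (65.0 to 87.1) and 83.0% (74.5 to 89.6). On the autosome arms, with 68.5% covered, they were 64.8% (52.5 to 75.8) and 69.2% (59.4 to 77.9). The covered share lies inside the interval in each of these 4 cases on X and on the autosome arms. On the arms alone the covered 69.6% lies inside the interval for sites with CLAMP only. For shared sites it lies slightly below the interval of 69.8 to 81.8. A peak counted as in a gene body if any base of it overlapped one, while the covered share counts single bases. These measures are unlike, so that small gap does not show an excess. Of the 17684 arm genes, 0.843% had a mutant peak and 1.18% a CLAMP peak. In genes of at least 50000 bp the shares were 22.3% with a mutant peak and 27.6% with a CLAMP peak, and in genes under 2000 bp 0.0505% and 0.0808%. Longer genes offer more sequence, and per Mb of gene body there were 4.58 CLAMP peaks in the first of these length classes and 0.852 in the second. A site with CLAMP only lay in 0.526% of arm genes and a shared site in 0.831%.

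Several gene lists rich in long genes held FLAG peaks, and each is given beside the share of genes of 20 kb or longer with a CLAMP peak, 14.9%, and of X genes, 3.66%. Of 31 voltage-gated and potassium channel genes, 6 had a mutant peak and 7 a CLAMP peak (22.6%), at 14.8 CLAMP peaks per Mb of gene body, against 2.80 over all genes. Genes of at least 50000 bp had 4.58 per Mb and the whole of X 7.14 per Mb. No density matched for both X and length was taken. Of the 7 channel genes with a CLAMP peak, 6 are on X, where 9 of the 31 lie. Besides para and Sh they were eag, a potassium channel gene (2 mutant and 3 CLAMP peaks), Hk, a potassium channel beta subunit gene (1 and 2), Ca-alpha1T, a T-type calcium channel gene (1 and 2), SK, a calcium-activated potassium channel gene (1 and 1), and slo, the autosomal large-conductance potassium channel gene (0 and 1). At least 1 site with CLAMP only lay in 5 of the 7. Over all arm genes with a CLAMP peak this share was 44.5% (93 of 209), and over genes with at least 2 CLAMP peaks it was 68.97% (40 of 58).

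Of 36 synapse and axon genes, 7 had a mutant peak and 9 a CLAMP peak (25%, 9.96 per Mb). Those with CLAMP peaks but no mutant peak were rut, the adenylyl cyclase gene of learning (0 mutant and 1 CLAMP peak), and brp, the active zone gene Bruchpilot (0 and 1). rdgA, a diacylglycerol kinase gene (2 and 2), dlg1 (1 and 1), Dscam1 (1 and 1), CASK (1 and 1) and Tomosyn had every site shared. In Frq1 the mutant peak (1, against 2 CLAMP peaks) lay at none of the CLAMP sites. Of 43 neurotransmitter receptor genes only nAChRalpha3 (1 mutant and 2 CLAMP peaks) and nAChRbeta1 (0 and 1) had peaks (4.65%), at 2.71 per Mb, close to the density over all genes.

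The mutant peaks of regulator genes are given beside the 70.3% of arm genes with a CLAMP peak that had a shared one (147 of 209), and differences between the lists were not tested. Of 58 homeobox genes, 3 had a mutant peak and 6 a CLAMP peak (10.3%). The mutant was called in acj6, en and OdsH (1 mutant peak each, beside 2 CLAMP peaks in OdsH), and not in oc, the head gene orthodenticle, in Lim1 or in Rx, which had 1 CLAMP peak each. Of 34 zinc finger factor genes, 7 had a mutant peak and 8 a CLAMP peak (23.5%, 12.2 per Mb). The mutant was called in mamo, Cph, Sp1, ush, chinmo and fru at CLAMP sites. In luna the 1 mutant peak and the 1 CLAMP peak lay 5380 bp apart, while br, the early ecdysone gene Broad, had 0 mutant peaks and 1 CLAMP peak. Of 14 ecdysone pathway genes, 3 had a mutant peak and 6 a CLAMP peak (42.9%), with a median length of 55.7 kb. The mutant was called in Eip63E, Eip75B and ftz-f1, and was missing in br, Hr3 and Eip93F. Of 28 signalling genes, 4 had a mutant peak and 4 a CLAMP peak (14.3%, 9.46 per Mb). All 6 of their CLAMP sites were shared, where 61.9% of all CLAMP peaks were, and this was not tested. The 4 genes were fz2 (3 mutant and 3 CLAMP peaks) and the Wnt receptor gene fz, the Notch receptor gene N and Cow, a Wnt modulator gene (1 and 1 each).

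Some lists had 0 or 1 gene with a FLAG peak, where 1.18% of all arm genes had a CLAMP peak. Of 24 genes with known GA-repeat promoters, en, a segment polarity gene, had 1 mutant and 1 CLAMP peak (4.17% of the list). Only peaks in gene bodies were counted, so peaks at promoter sequence outside the body do not enter this share. The roX RNA genes (2), the dosage compensation genes (7) and the GA-repeat binding protein genes (3) had 0 in both lists. These lists are too short for a 0 to differ from the share over all genes, and a 0 of 7 allows up to 42.9%. A shared site lay 3689 bp outside the body of psq, the pipsqueak gene of the GA-repeat binding list (2R 10554049 to 10554199), and a site with CLAMP only lay 1936 bp from that site. The 92 ribosomal protein genes had 0, which allows a share of up to 3.26%, and the 111 replication-dependent histone genes had 0, which allows up to 2.70%. These limits also lie above the share over all genes. The ribosomal and histone genes are short, with median lengths of 1.315 kb and 0.529 kb, and the histone genes are near-identical copies whose reads may not have been placed.

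The 5 sites with the mutant only lay between 243 and 67733 bp from the nearest CLAMP peak. One on 2L (23513251 to 23513401) lay 243 bp from the first shared site of both lists and stood at line 7 of the mutant list. The others lay in luna, a zinc finger gene (2R 11116357 to 11116507), in SPR, the sex peptide receptor gene (X 5466575 to 5466725), in Frq1, the calcium sensor gene frequenin 1 (X 18171686 to 18171836), and 4796 bp from pdm3 (2R 8322544 to 8322694). The nearest CLAMP peak was 1443 bp away at pdm3, 5380 bp at luna, 12290 bp at Frq1 and 67733 bp at SPR. Frq1 also held 2 sites with CLAMP only, so both proteins were called in this gene at different places. The luna site was also in the MSL2 list made with CLAMP and the Frq1 site in the CLAMP antibody list made with MSL2. The other 3 were in 0 of the 7 lists.

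CLAMP sites were mostly far apart. The median gap to the nearest site of the CLAMP list was 65823 bp for sites with CLAMP only and 52778 bp for shared sites. Of 35 neighbouring pairs within 10 kb, 18 joined a site with CLAMP only and a shared one, 3 joined sites with CLAMP only and 14 shared ones, and 21 of the 35 lay on X. Mixed pairs were 51.4% of these (34.0 to 68.6), close to the 48.3% of all 348 neighbouring pairs. The closest pair was 209 bp apart, 13679 bp from Dscam2 (3L 7203610 to 7203760, CLAMP only, and 7203970 to 7204120, shared). Pairs with CLAMP only lay in CG2839 (313 bp apart) and Ptp61F (622 bp), a mixed pair in fne, an RNA-binding protein gene of neurons (438 bp), and a shared pair in Tomosyn (782 bp). Among sites far from others were Pvf3, a growth factor gene (2L 7110786 to 7110936, shared), CG42784 (2L 13460679 to 13460829, shared), and CanA1 and pxb (3R 31042995 to 31043145 and 15680056 to 15680206), which were with CLAMP only.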

How the data were processed

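Per the submitters' processing notes, Bowtie2 2.2.9, SAMtools 1.9 and HOMER 4.9 were used with the build dm6. Per the file headers, the authors called peaks with HOMER findPeaks (factor style) on merged tags of each group against the negative control of the same antibody, at 10-fold over control and 4-fold over the surrounding 10000 bp (Poisson p of 0.0001), at an FDR of 0.001. Tag sets were normalized to 10000000, and their totals ran from 3875205 to 26822838. The deposited score is 1 in every line and was not used. Overlap was at least 1 bp, coordinates are 1-based, and genes came from a RefSeq table of Release 6 plus ISO1 MT, which gives neither strand nor sequence, so GA repeats were not analysed here. Arm lengths run to the last gene or peak. Where a count was 0, the limit is 3 counts of the total.

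Named sites followed a rule: all with the mutant only, the first 10 of each class in file order, the 10 of each class in the most other lists, genes with 3 or more CLAMP peaks, the listed genes, and the nearest and farthest neighbours. The sites near psq, upd3 and CG15465 fell outside the rule and were named after their values were seen. Members, lists and rule were chosen with earlier results of these data known. One listed signalling gene was not matched. On simulated lists the overlap script found 100 of the 100 overlaps built into them. Python 3.11.15, pandas 2.3.3, scipy 1.17.1 and matplotlib 3.10.9 were used. Alternatives were stricter or looser overlap, X or autosomes alone, arms alone, shorter lists and merging within 500 bp.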

Additional observations from a re-analysis of the deposited data

How the results depend on the processing

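Of 122 values under alternatives, 96 stayed within the interval of the reported share, within 1.5 times the reported count or at the reported median width. Some of these had little or no room to move. The X shares are defined on the arms, so arms alone repeats them, and nearly all peaks are 151 bp wide. The share of sites with CLAMP only that other antibodies found lay below that of shared sites in 11 of 11 settings, both for the CLAMP antibody with CLAMP alone and for MSL2 alone. The 11 include the reported setting, and several others keep nearly the same peaks, so they are not independent. Requiring 50% reciprocal overlap left 93.3% of mutant peaks in the CLAMP list and 15 with the mutant only. Cutting the CLAMP list in file order to the length of the mutant list gave 71.0% sharing in each direction and 65 peaks in either list only, with X shares of 6.15% for CLAMP only and 33.3% for shared peaks. In the first 50% of both lists 68 peaks were with CLAMP only and 3 with the mutant only. There the X shares were 23.5% (CLAMP only) and 20% (shared), the CLAMP antibody found 21.1% of shared peaks, and MSL2 alone lay at 10.3% of peaks with CLAMP only. The shorter lists of these settings have fewer peaks by construction, as have X alone (62 with CLAMP only, 2 with the mutant only) and the autosome arms alone (71 and 3). On X, MSL2 alone was at 22.6% of shared peaks and 83.0% of shared peaks were in gene bodies. Merging within 500 bp gave a median width of 159 bp for shared regions in place of 151 bp. With the classes kept and added after the data were examined, the first and second 50% of the CLAMP list gave X shares of 6.67% and 67.0% for CLAMP only and of 26.8% and 83.9% for shared peaks, and the CLAMP antibody found 10.3% of shared peaks in the second. The causes of these shifts were not tested beyond list length. A stricter score could not be tried, as the score is 1 in every line, and GA repeats could not be searched without sequence. No paired analysis was possible because each group has 1 merged list, and no replicate could be left out. The part of depth was not tested: the mutant tag set is the larger and its list the shorter.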

Other observations

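The arm genes with a CLAMP peak in the body were 189 protein-coding genes, 16 long noncoding RNA genes, 3 antisense RNA genes and 1 tRNA gene. A peak lay in more than 1 gene body at 9 of 135 sites with CLAMP only (6.67%, 3.09 to 12.3) and at 19 of 219 shared sites (8.68%, 5.30 to 13.2), so the gene of these sites is ambiguous.

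Peaks of the other antibodies were also divided by the FLAG class they overlapped. Of the 38 CLAMP antibody peaks of the mutant alone, 22 were at shared FLAG sites (57.9%, 40.8 to 73.7), 0 at sites with CLAMP only, which allows up to 7.89%, and 16 at neither. Of the 74 of CLAMP alone, 34 were at shared sites, 7 at sites with CLAMP only and 33 at neither (44.6%, 33.0 to 56.6). Of 132 peaks of MSL2 alone, 92 (69.7%, 61.1 to 77.4) were at no FLAG site, and of 226 peaks of MSL2 with the mutant 221 (97.8%, 94.9 to 99.3). Of 466 peaks of MSL2 with CLAMP, 382 (82.0%, 78.2 to 85.4) were at no FLAG site. The CLAMP antibody lists made with MSL2 had 275 of 429 there with CLAMP (64.1%, 59.4 to 68.6) and 56 of 70 with the mutant (80%, 68.7 to 88.6). The MSL2 list made with CLAMP held 12 Y peaks, at 10 of the 11 FLAG CLAMP peaks of Y, and the lists of MSL2 with the mutant and of MSL2 alone held 1 Y peak each.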
